A study of Saccharomyces cerevisiae with 10 samples.

Results

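A total of 528 ORC binding peaks were found in Orc4-IHΔ cells, overlapped no WT ORC peak and lay outside every region of open chromatin detected by ATAC-seq. They were chosen from the deposited peak lists by position. Lines of the mutant ORC list that carry 1 peak name were joined from the first start to the last end, which turned 2219 lines into 2140 peaks. The ATAC-seq peaks of both strains were merged where they overlapped or touched, into 2716 regions. A mutant peak was kept when it shared no base with a WT ORC peak or with an ATAC region. The 528 peaks were 24.7% of all joined mutant peaks (95% Wilson interval 22.9% to 26.5%) and 28.7% of the 1837 that met no WT peak. Presence in the mutant list and absence from the other lists are thus the criteria of choice and not findings.

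ORC, the origin recognition complex, binds replication origins in all eukaryotes and loads the MCM helicase there. In budding yeast it recognises the ARS consensus sequence, and part of this recognition is made by a short insertion helix of the Orc4 subunit that human Orc4 lacks. Yeast ORC normally occupies gaps in the nucleosome array at origins. Gaps in that array, which promoters have too, are what the transposase of ATAC-seq cuts most readily. A site without an ATAC peak is DNA at which such cuts were not enriched enough to be called, which is usual for DNA covered by nucleosomes.

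The study describes 2 libraries per strain for ORC ChIP-seq and 1 for ATAC-seq, and 1 list per strain was deposited for each assay. All strains were MATa derivatives of W303-1a in which the endogenous ORC4 gene stands behind the GALS promoter (GALS-ORC4-kanMX4), and this holds for the controls too. Growth in glucose medium for at least 18 h shut that copy off. WT cells then lived on an ORC4 copy integrated at another locus (ura3-1::ORC4-URA3), and mutant cells on a copy without the insertion helix (ura3-1::orc4-IH_delta-URA3), each under the native promoter. Both strains also carried ORC6-MYC-hphNT1, the tag used for precipitation, and the marker alleles can1-100, leu2-3,112, trp1-1, his3-11,15 and ade2-1. All cells of both assays were arrested in G2/M with benomyl at 20 µg/ml for about 3 h. ORC chromatin was sheared to an average of 300 bp. The sample labels and the list names give opposite strains for the ATAC-seq lists, of 2480 and 2457 peaks. Merging them makes the choice of peaks independent of that conflict.

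Each list gives a position, a fold enrichment over background and a −log10 q value from the peak caller, and coordinates are those of sacCer2. The number of reads behind the lists is unknown. With 1 combined list per strain there is no replicate spread, and no difference was tested. Wilson and Poisson intervals cover counting error only, and neighbouring peaks are not independent of each other. Every line of the mutant list is named after library number 2, so each peak's values may describe that library's call rather than both. The peak numbers in those names run to 3084, and 944 of them are absent from the list. The names of both ORC lists carry the words common and notRNA, and which peaks were left out under the second is not stated in the sources used here. Densities, distances between peaks and the absence of a WT peak therefore refer to listed peaks. Of the 528 peaks, 267 stand next to an absent number. The same count was not made for the other mutant peaks, so it does not set these peaks apart.

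The peaks were narrow and of moderate height. The median joined width was 195.5 bp (quartiles 163 and 233.25 bp, range 39 to 790 bp), and 91.5% were at most 300 bp wide. Only 3 of the 528 were joined from 2 lines. Together they covered 112462 bp. The median fold enrichment was 2.83 (quartiles 2.39 and 3.41, range 1.59 to 9.10). A value under 4 was found in 469 peaks (88.8%), and a value under 2 in 28. The median −log10 q was 10.7, with a range of 1.72 to 107. Wider peaks were higher, with a Spearman correlation of 0.52 between width and fold enrichment across the 528 peaks. Both come from the same call in the same libraries, so this describes the list only.

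The 1309 mutant-only peaks that did overlap an ATAC region are the nearest set for comparison. Their median fold enrichment was 3.23, with quartiles of 2.59 and 4.01, and their median width was 270 bp, with quartiles of 199 and 434 bp. The 124 peaks outside ATAC regions that were shared with WT had a median fold enrichment of 2.90 and a median width of 232.5 bp. For the 179 that were both shared and in ATAC regions, the medians were 3.41 and 395 bp. Both medians of the 528 peaks were thus the lowest among these 4 sets. A wide interval has more bases that can touch an ATAC region or a WT peak, so the choice by overlap favours narrow peaks by construction.

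**Figure D1:**
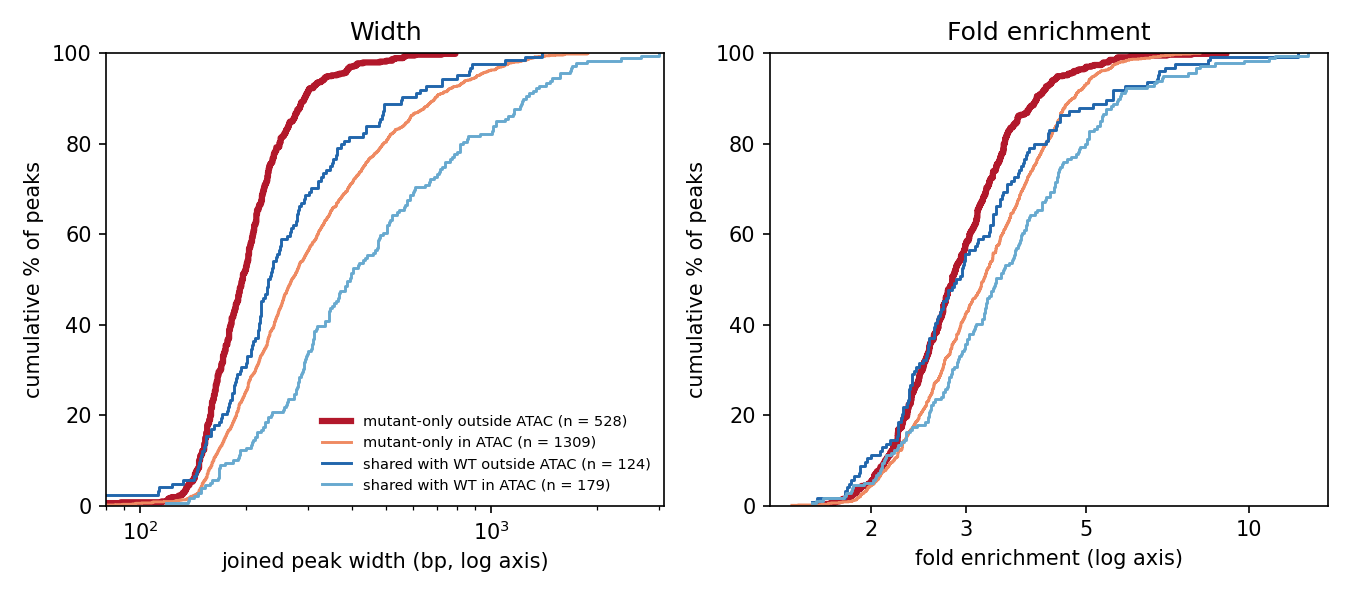
Cumulative percentage of joined mutant ORC peaks by width in bp (left, log axis) and by fold enrichment (right, log axis) for the 4 sets formed by overlap with WT ORC peaks and with ATAC regions. The 528 mutant-only peaks outside ATAC (thick red line) have a median width of 195.5 bp and a median fold enrichment of 2.83, and their width curve lies to the left of the other 3 over most of its range. The width axis starts at 80 bp.

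Peaks of like width were then compared, a comparison added after the values were seen, and the order of the sets was not kept. Among peaks 150 to 200 bp wide, the median fold enrichment of the set was 2.70 and the highest of the 4. It was 2.596 for mutant-only peaks in ATAC regions, 2.61 for shared peaks outside ATAC and 2.44 for shared peaks in ATAC. Among peaks 200 to 300 bp wide, the median was 3.15 for the set, 3.18 for mutant-only peaks in ATAC, 2.94 for shared peaks outside ATAC and 3.04 for shared peaks in ATAC. The set was thus not the lowest in either range of width. The shared sets were small here, with 25 and 16 peaks in the narrower range and 47 and 39 in the wider. Over all widths, and without matching for width, high values were less frequent in the set than in the other sets. A fold enrichment of at least 5 was reached by 17 of the 528 peaks (3.22%, 95% Wilson interval 2.02% to 5.10%), by 92 of the 1309 mutant-only peaks in ATAC regions (7.03%, interval 5.77% to 8.54%), and by 15 of the 124 shared peaks outside ATAC (12.1%, interval 7.47% to 19.0%). For shared peaks in ATAC regions it was 36 of 179 (20.1%, interval 14.9% to 26.6%). Of the 100 joined mutant peaks with the highest fold enrichment, 11 belonged to the set, which makes up 24.7% of the joined list. This count was not matched for width either.

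The share of mutant peaks that were mutant-only and outside ATAC lay between 26.6% and 34.6% in the lower 7 deciles of fold enrichment and was smaller above them. In the lowest decile it was 27.6% (interval 22.0% to 33.9%), in the eighth 15.9% and in the highest 10.7% (interval 7.27% to 15.6%). By width the share fell throughout, from 43.9% in the narrowest decile (interval 37.4% to 50.6%) to 31.3% in the fifth and 0.935% in the widest, where 2 of 214 peaks remained. Since the choice by overlap favours narrow peaks, a fall with width follows from it by construction. The deciles of fold enrichment were not matched for width, with which fold enrichment rose within the set.

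**Figure D2:**
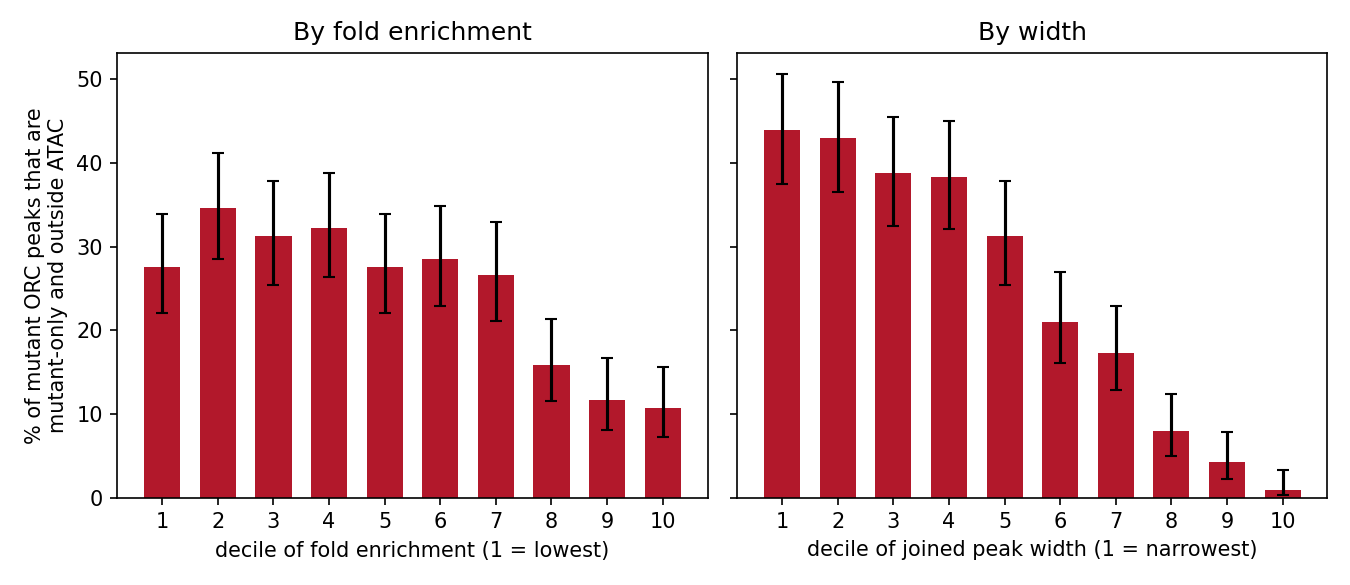
Percentage of the 2140 joined mutant ORC peaks that are mutant-only and outside ATAC regions, by decile of fold enrichment (left) and of width (right); bars are shares of 214 peaks and error bars 95% Wilson intervals. The share is 27.6% in the lowest and 10.7% in the highest decile of fold enrichment, and 43.9% in the narrowest and 0.935% in the widest decile of width. The choice by overlap favours narrow peaks by construction, and the deciles of fold enrichment are not matched for width.

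The 10 peaks of highest fold enrichment lie on chromosomes II, IV, IX, X, XV and XVI. The first, on chromosome X from 278108 to 278829, reached 9.10 and was 722 bp wide. It lay 1821 bp from the nearest ATAC region and 48984 bp from the nearest WT ORC peak. The next, on chromosome XVI from 415531 to 415823, reached 7.84 and lay 2988 bp from an ATAC region and 1951 bp from a WT peak. Both stood well above the upper quartile of 3.41. The third, on chromosome IV from 943384 to 943710, reached 7.06, and its nearest neighbour of any kind in the mutant list was 8797 bp away. On chromosome XV, the peak from 602377 to 602680 reached 6.05 and lay 3501 bp from an ATAC region. The peak on chromosome IX from 247418 to 247919 also had 6.05 and was the closest of the 10 to open chromatin, at 737 bp, and to a WT peak, at 665 bp. The other 5 had fold enrichments between 5.51 and 5.73. They lie on chromosome XVI (121238 to 121632, 619882 to 620192 and 191135 to 191343), on chromosome X (126490 to 126753) and on chromosome II (423303 to 423692). Their distances to an ATAC region ran from 1952 to 2992 bp. None of the 10 lay at the rim of an ATAC region, but peaks at the rim were few in the whole set. Of the 528 peaks, 13 lay within 100 bp of an ATAC edge and 91 within 500 bp. The 10 peaks are thus too few to set high peaks apart by this distance. Across the 528 peaks, fold enrichment and the distance had a Spearman correlation of −0.02.

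For the set as a whole, the median distance from a peak to the nearest ATAC edge was 1584 bp (quartiles 840.25 and 2604.5 bp, range 38 to 14775 bp). Within 100 bp of an edge lay 13 peaks, within 500 bp 91 (17.2%, 95% Wilson interval 14.3% to 20.7%), and within 2000 bp 330 (62.5%). The 124 shared peaks outside ATAC lay closer, with a median of 854 bp and quartiles of 482 and 1368.75 bp. Of the DNA between neighbouring ATAC regions, 22.6% lay within 500 bp of an edge and 64.3% within 2000 bp. For the midpoints of the 528 peaks these shares were 13.3% and 58.3%. The median was 1345 bp for that DNA and 1676.5 bp for the midpoints, so the peaks were not closer to an edge than the DNA around them. The choice by overlap itself removes midpoints next to an edge. In keeping with the low rank correlation given above (Spearman −0.02), the median fold enrichment was 2.80 for midpoints 500 to 1000 bp from an edge and 2.85 for those over 5000 bp away. Measured to each ATAC list alone, the median distance was 1684.5 bp to the list labelled WT and 1726 bp to the list labelled Orc4-IHΔ. By the paper's peak counts these labels are exchanged.

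All 528 midpoints fell between 2 neighbouring ATAC regions of their chromosome, in what are called gaps here. Merged ATAC regions took up 13.1% of the nuclear genome, and the 2694 gaps had a median length of 2646.5 bp. Gaps with at least 1 of the peaks numbered 438 (16.3%). These were longer, with a median of 6092.5 bp against 2155 bp for gaps without one. Per base, the gaps from the third decile of length upward ranged from 4.16 to 6.77 peaks per 100 kb. The peaks numbered 4.36 per 100 kb in the third decile of gap length (825 to 1398 bp), 6.77 in the eighth and 4.99 in the longest decile (8832 to 32876 bp), while the 269 gaps of the shortest decile, of at most 326 bp, held none and those of the second decile 0.646. A member has to fit into its gap, which bears on the shortest ones.

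Within the gaps, the density of peaks was highest from 1000 to 3000 bp from an ATAC edge and lower on both sides, though not evenly so. Midpoints numbered 4.84 per 100 kb of DNA lying 300 to 500 bp from an edge (exact 95% Poisson interval 3.49 to 6.55), and 3.86 at 500 to 1000 bp (3.01 to 4.87). They numbered 6.54 at 1000 to 1500 bp (5.28 to 8.03), 6.86 at 1500 to 2000 bp (5.40 to 8.60) and 7.34 at 2000 to 3000 bp (6.03 to 8.85). The value was 5.79 at 3000 to 5000 bp (4.60 to 7.19) and 3.60 beyond 5000 bp (2.41 to 5.17). The interval at 300 to 500 bp overlaps those of all bins farther in. Close to the edge the choice of peaks itself acts, since a peak whose midpoint is nearer than its own reach to one side would overlap. The widest member reaches 395 bp to each side. Counting the midpoint of every mutant-only peak outside ATAC, overlapping or not, removes this effect of ATAC overlap. It gave 5.35 per 100 kb within 100 bp and 3.64 at 200 to 300 bp, without computed intervals. The higher value next to the edge was 28 midpoints, all of peaks that reach into an ATAC region. Leaving out peaks shared with WT is not corrected by this count. The 124 such peaks outside ATAC lay at a median of 854 bp from an edge, so that criterion also bears on the density near edges.

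**Figure D3:**
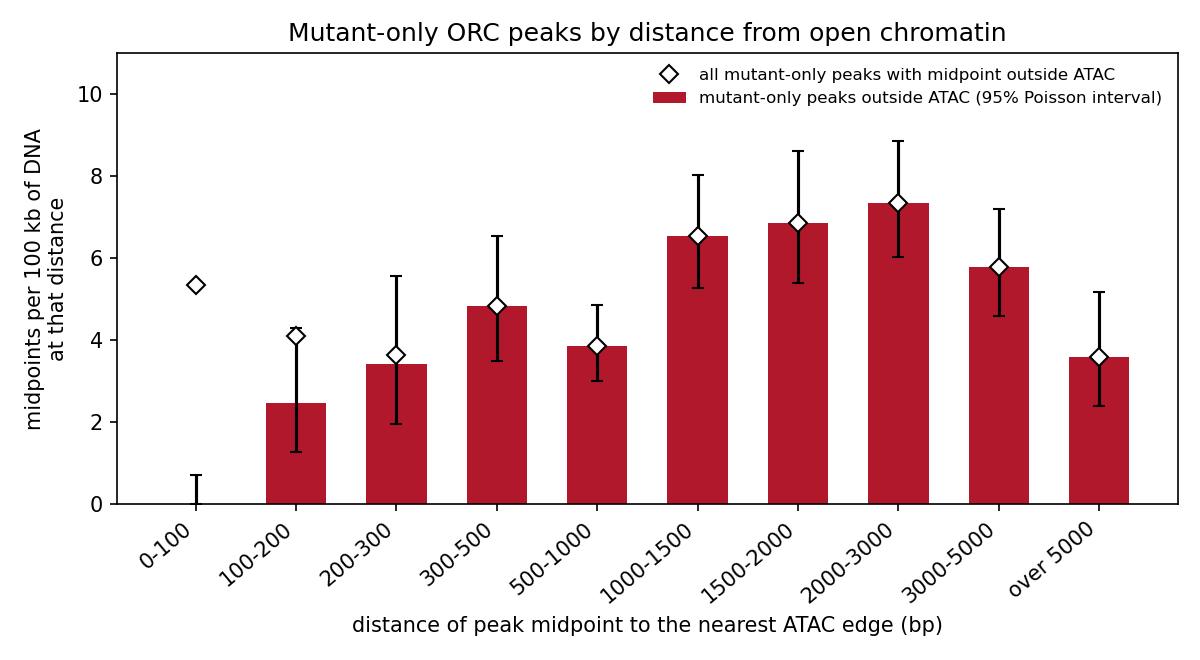
Midpoints of ORC peaks per 100 kb of DNA at each distance in bp from the nearest ATAC edge, within gaps between ATAC regions. Bars are the 528 mutant-only peaks outside ATAC with exact 95% Poisson intervals, and diamonds are all mutant-only peaks whose midpoint lies outside ATAC; bars are 4.84 at 300 to 500 bp, 3.86 at 500 to 1000 bp, 7.34 at 2000 to 3000 bp and 3.60 over 5000 bp.

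Short gaps hold only DNA near an edge, so the comparison was repeated in the 969 gaps of at least 4000 bp, where each distance up to 2000 bp is present in every gap. Of the midpoints within 2000 bp of an edge there, 66 lay in the first 1000 bp and 128 in the second, over the same number of bases (66.0% in the second, 95% Wilson interval 59.1% to 72.3%). With all mutant-only midpoints outside ATAC, the share in the second was 62.7%. In the 565 gaps of at least 6000 bp the share for the set alone was 61.8% (interval 52.1% to 70.6%). The Poisson intervals of the set's densities in the first and second 1000 bp overlapped there (2.45 to 4.72 and 4.28 to 7.13 per 100 kb). With all mutant-only midpoints outside ATAC, 44 lay in the first 1000 bp of these gaps and 63 in the second. Peaks shared with WT were left out of all these counts. The comparisons were chosen after seeing the distances.

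At the border of the choice, the members nearest to an ATAC region lay on chromosome XV from 976733 to 976939, 38 bp from the edge with a fold enrichment of 4.64, on chromosome VIII from 344113 to 344293, at 42 bp with 2.65, and on chromosome IX from 212011 to 212197, at 51 bp with 3.41. Just beyond it were mutant-only peaks that overlapped an ATAC region by 1 bp on chromosome V (484366 to 484607, fold enrichment 3.03) and on chromosome XIII (353727 to 353898, 4.48), and by 4 bp on chromosome VII (270841 to 270996, 2.56).

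At the other extreme, the peak on chromosome XV from 143943 to 144170 was 14775 bp from any ATAC region, with a fold enrichment of 2.99. Another member, 5912 bp away from 137814 to 138030, had 1.72 and lay 8846 bp from an edge. The other peaks far from open chromatin lie on chromosome XIV from 157832 to 157967 (9810 bp, fold enrichment 1.82), on chromosome IV from 1116685 to 1116999 (8145 bp, 3.32) and on chromosome XII from 270762 to 271017 (7582 bp, 4.06). The fold enrichments of these 5 ran from 1.72 to 4.06.

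Of the 5 widest peaks, the first lies on chromosome VI from 261014 to 261803 and was joined from 2 lines, with a fold enrichment of 4.997, 8373 bp from the last listed position of the chromosome. The peak of 722 bp on chromosome X, already described, was next. It was followed by peaks of 605 bp on chromosome V (564926 to 565530, fold enrichment 4.70), 568 bp on chromosome XII (345999 to 346566, 2.24, joined from 2 lines) and 565 bp on chromosome XIII (537195 to 537759, 3.54). Width and height did not always go together among them.

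The ATAC regions that flank the peaks were described next. The region nearest to a peak held a mutant ORC peak of its own for 315 of the 528 peaks (59.7%, 95% Wilson interval 55.4% to 63.8%), while 49.8% of all nuclear ATAC regions did (interval 47.9% to 51.7%). Both flanking regions held one for 184 peaks (34.8%, interval 30.9% to 39.0%) and in 27.6% of all gaps. For 103 peaks (19.5%) neither did. The nearest regions were 453 distinct ones, with a median ATAC fold enrichment of 3.68 and a median width of 539 bp, against 3.20 and 458 bp for all nuclear regions. They were called in both ATAC lists for 81.8% of the peaks (interval 78.3% to 84.9%), and 77.4% of all nuclear regions were (75.8% to 79.0%). The shares of peaks count a region or gap once for each of its peaks. The shares of all regions and gaps count each once, whatever its length, and gaps with a peak were longer. The units are thus unlike, and no difference was tested.

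Spacing within the set depends on its density, which was 4.39 peaks per 100 kb of the nuclear genome. Of the 528 peaks, 42 (7.95%, 95% Wilson interval 5.94% to 10.6%) had another of the set within 1000 bp. These formed 21 pairs and no longer run. The share expected from the density alone was not computed, so the values do not show the peaks to be more or less single than that. The first of the pairs lies on chromosome II, at 288027 to 288314 (fold enrichment 3.15) and at 289164 to 289369 (2.38), 849 bp apart. The median distance to the nearest other peak of the set was 6459 bp (quartiles 3119 and 14869 bp). With a limit of 2000 bp, 97 peaks stood in runs, and the longest run had 4 peaks.

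That longest run and the most crowded gap coincide, on chromosome II, and were singled out after their values were seen. A gap of 9578 bp there, from 544932 to 554509, held 5 peaks. Their fold enrichments were 3.18 (546194 to 546395), 2.77 (547228 to 547382), 1.88 (549113 to 549274), 4.03 (549527 to 549759) and 2.84 (553186 to 553415). The only gap with 4 lies on chromosome XVI from 228632 to 246653, with peaks of 2.37 to 4.21 in its right part, between 241500 and 246480. Of the 438 gaps with a peak, 358 held 1 and 73 held 2.

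When all mutant ORC peaks were counted as neighbours, 128 of the 528 peaks (24.2%, interval 20.8% to 28.1%) had one within 1000 bp, and the median distance was 1927.5 bp. For the 1307 mutant-only peaks in ATAC regions of the nuclear genome, the median distance to another mutant peak was 1500 bp, with quartiles of 569 and 3026.5 bp. The nearest neighbour was a mutant-only peak in an ATAC region for 326 peaks (61.7%), another peak of the set for 138 (26.1%) and a peak shared with WT for the rest, 35 outside ATAC and 29 in it. Mutant-only peaks in ATAC make up 61.2% of the joined list and the set itself 24.7%. Within 300 bp, the average length of the sheared DNA, 39 peaks had a neighbour, of which 14 were in the set, 10 were mutant-only in ATAC, and 8 and 7 were shared with WT outside and in ATAC.

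**Figure D4:**
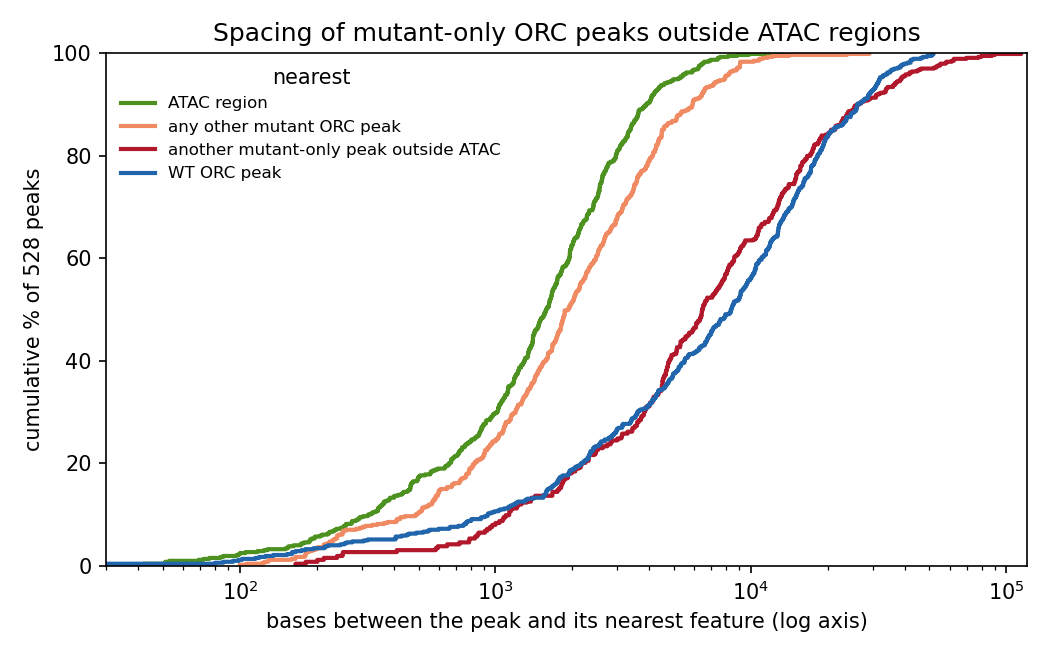
Cumulative percentage of the 528 peaks by the number of bases to the nearest ATAC region, to any other mutant ORC peak, to another peak of the set and to the nearest WT ORC peak (log axis). The medians are 1584, 1927.5, 6459 and 8377 bp.

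The median distance to the nearest WT ORC peak was 8377 bp (quartiles 2832 and 16151 bp), and 56 peaks (10.6%, 95% Wilson interval 8.26% to 13.5%) had one within 1000 bp. For mutant-only peaks in ATAC regions the median was 6237 bp, with quartiles of 2170 and 14209 bp. The WT list held 587 joined peaks, beside 2140 in the mutant list. The distance to be had from so sparse a list alone was not computed. Shares within 1000 bp and 300 bp were counted for the set only, so they do not set it apart. A small group stood beside WT binding: 25 of the 528 peaks lay within 300 bp of a WT peak. In 14 cases that WT peak also overlapped another mutant peak, so that the member flanked a shared site, and in 11 it overlapped none. The closest was on chromosome XIII, where the mutant peak from 511802 to 512012 (fold enrichment 2.57) began 5 bp after a WT peak from 511609 to 511796 (2.09) that met no mutant peak. On chromosome III, the mutant peak from 74079 to 74287 (3.52) ended 18 bp before a WT peak from 74306 to 74670 (3.41) that also met another mutant peak. The 25 peaks had a median fold enrichment of 2.67, with a range of 2.15 to 4.42, and the WT peaks beside them ranged from 1.61 to 9.01.

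The peaks were found on all 16 nuclear chromosomes and none lay on the mitochondrial genome or the 2micron plasmid. Chromosome lengths were taken as the largest end in any of the 4 lists. Density was 4.39 per 100 kb over the nuclear genome. It was highest on chromosome II, with 56 peaks (6.92 per 100 kb), followed by chromosome XVI with 59 (6.23) and chromosome VIII with 31 (5.51). It was lowest on chromosome XIII, with 31 peaks (3.35 per 100 kb), on XIV with 27 (3.44) and on III with 11 (3.48). The order was the same for the 3 densest chromosomes when only DNA outside ATAC regions was counted, with 7.89, 7.18 and 6.30 per 100 kb. As a share of all mutant peaks on a chromosome, the set made up 34.4% on chromosome II (95% Wilson interval 27.5% to 41.9%), 33.0% on VIII (24.3% to 43.0%) and 30.9% on XVI (24.8% to 37.8%), and 19.5% to 25.4% on the others. The interval of chromosome II lay above those of IV (17.3% to 27.2%) and XII (16.1% to 27.4%) and overlapped the others. Median fold enrichment per chromosome ran from 2.56 on VI to 3.18 on I.

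**Figure D5:**
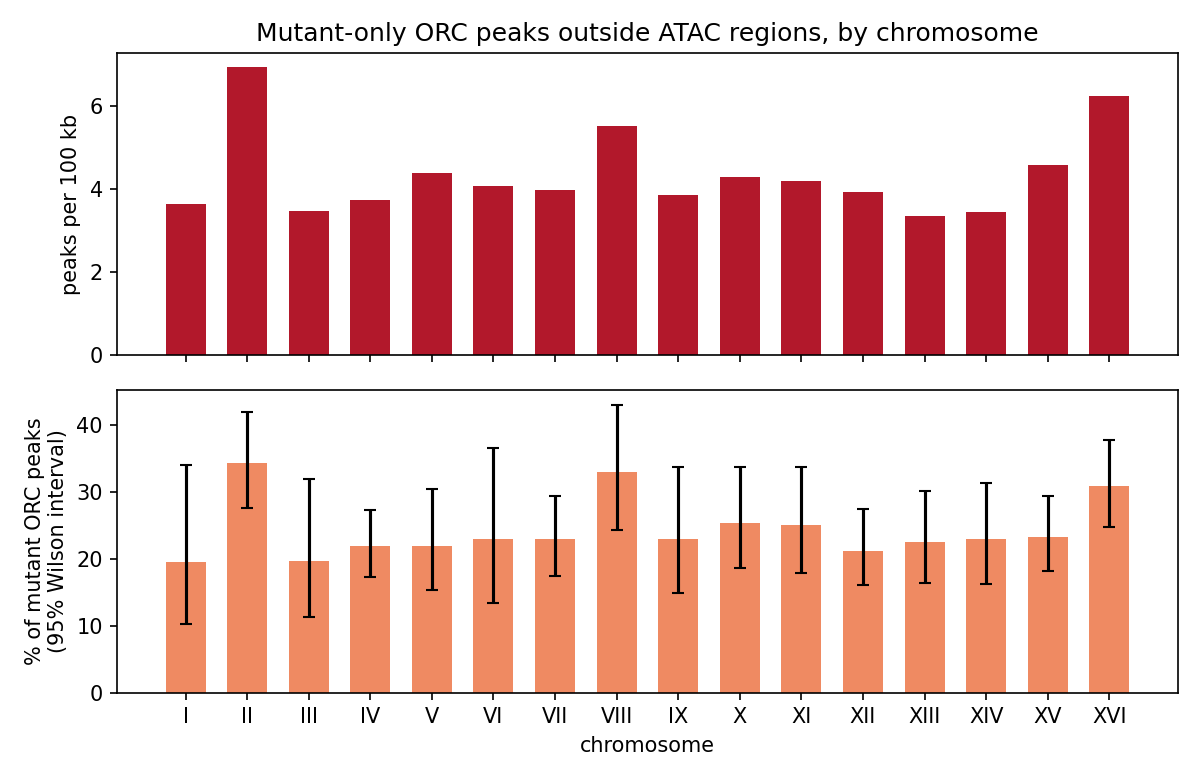
Mutant-only ORC peaks outside ATAC regions per 100 kb of each chromosome (top) and as a percentage of all joined mutant ORC peaks on it (bottom, error bars are 95% Wilson intervals). Chromosomes II, XVI and VIII have the highest densities, 6.92, 6.23 and 5.51 per 100 kb, and also the 3 highest shares.

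Along the chromosomes the peaks were spread widely. Of 232 full windows of 50 kb, 28 held none, the median was 2 and the highest count was 7, reached in 3 windows, on chromosome II (500001 to 550000) and on chromosome XVI (150001 to 200000 and 500001 to 550000). The longest stretch between neighbouring midpoints was 162765 bp, on chromosome XI from 357832 to 520597, followed by 150909 bp on chromosome VII from 22258 to 173167. Within 20000 bp of a chromosome end lay 30 of the 528 peaks (5.68%, 95% Wilson interval 4.01% to 7.995%), beside 5.29% of all nuclear mutant ORC peaks, and this zone makes up 5.32% of the nuclear DNA. Within 10000 bp lay 13 (2.46%), in 2.66% of the DNA. The share of peaks near chromosome ends was thus close to the share of DNA there.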

How the data were processed

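ORC ChIP-seq and ATAC-seq peak lists of WT and Orc4-IHΔ cells in G2/M were used, 4 of the 10 samples. The other samples were not analysed here. The submitters' processing notes name Bowtie 1.2.2, Picard, SAMtools 1.3.1, bedtools 2.27.1 and MACS2 2.1.1.20160309 for ORC, Bowtie2 2.3.4.1, Picard and MACS2 2.1.1.20160309 for ATAC-seq, and the build sacCer2. The deposited fold enrichment is a linear ratio over background from the authors' peak caller. The same caller gave the deposited −log10 values, of which only those of q were used. How the 2 ORC libraries of a strain were combined is not given in the sources used here. Read depth is unknown, and summits were not used.

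Overlap needed 1 bp. Distances are bases between intervals. Wilson intervals and exact Poisson intervals are at the 95% level. No test was made. The interval code recovered the known answers of simulated data. The peaks and the measures were chosen with earlier results of these data known. Peaks named by rule are the 10 with the highest fold enrichment, the 5 farthest from ATAC, the 5 widest, those at the border of the choice and the first of the longest runs within 1000 bp. Peaks of the crowded gaps on chromosomes II and XVI were named outside that rule, after their values were seen. So were the peaks on chromosomes XIII and III closest to a WT peak. No gene, origin or sequence is given, since no annotation or genome of sacCer2 was used here. Alternatives are given in the closing section. Intervals came from scipy 1.17.1, tables from pandas 2.3.3 and numpy 2.4.6 and plots from matplotlib 3.10.9, under Python 3.11.15.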

Additional observations from a re-analysis of the deposited data

How the results depend on the processing

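Of 89 alternative values over 8 results, 80 stayed within the counting interval of the reported value or, for the number of peaks, within 1.5 times of it, and 9 did not. The number of peaks ranged from 200 to 646. Dropping every mutant ORC peak with a fold enrichment below 3.12, the median of the joined list, left 200 peaks, with a median fold enrichment of 3.54, a median width of 231 bp and 3.00% with another of the set within 1000 bp. This setting has fewer and higher peaks by construction. With only ATAC peaks found in both lists, the median distance to an edge was 1759 bp, 13.3% lay within 500 bp of one and 10.8% had another of the set within 1000 bp. Letting a peak stay when under 50% of it was covered by ATAC regions put 22.9% within 500 bp of an edge, and asking only that its midpoint lie outside put 22.7%. The share of midpoints in the second 1000 bp, among those within 2000 bp of an edge in long gaps, ran from 61.8% to 67.7%. This last result and its alternative of gaps of at least 6000 bp were chosen after seeing the data. The range leaves out all mutant-only midpoints counted in gaps of at least 6000 bp. Of these, 44 lay in the first 1000 bp and 63 in the second. No paired analysis was possible because each strain has 1 list per assay. Without reads, a site missing from the WT or ATAC lists cannot be told from one below the calling threshold.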
